A study of Mus musculus with 1298 samples.

Results

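Pdgfra+ cells descended from Pax7-expressing progenitors of the mouse embryo were sorted by the surface protein Thy1, and the RNA of the cells with high and with low Thy1 was compared in 4 bulk libraries, 2 against 2. These are 4 of the 18 bulk libraries among the 1298 samples of the series, and they are the only Thy1-sorted libraries made without culture. In Pax7CreER:R26R-stop-EYFP embryos, tamoxifen (75 µg/g at E9.5) turns on YFP for good in cells that express *Pax7* at that time and in all their descendants. YFP+ cells of E16.5 trunks, with head, limbs and viscera removed and the embryos of 1 day pooled, were sorted as Pdgfra+/Thy1+, as Pdgfra+/Thy1- and as Pdgfra-/Cd36+, with 2 libraries each. Pdgfra is a surface receptor of mesenchymal progenitors and fibroblasts, Thy1 a surface protein of dermal fibroblasts and Cd36 a fatty acid transporter of adipocytes. The duplicates of each sort are technical by the study's methods, so the p-values given here measure the spread between libraries and not that between embryos. The labels give E16.5 for all 4 libraries, but the study's own text places the sequenced Pdgfra+/Thy1- sort at an earlier stage. If that text is right, the sort and the stage cannot be told apart in anything that follows.

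The column names of the deposited table no longer show the plus or minus of the Thy1 sort. The libraries were therefore chosen by their *Thy1* RNA: within each replicate the library with more *Thy1* counts per 1000000 library counts (CPM) was called Thy1-high. *Thy1* stood at 109.3 and 86.2 CPM in the Thy1-high libraries and at 5.87 and 4.77 CPM in the Thy1-low libraries. These values selected the groups and are not a result. *Thy1* stayed in the library totals and in the fitted table but was left out of all reported tests, p-value adjustments and counts. The library totals were 26564521 and 17320736 counts for Thy1-high and 27594447 and 21168657 counts for Thy1-low, with 19746 to 20901 genes detected and 3.48% to 4.35% of counts from mitochondrial genes. The *Pdgfra* receptor itself was at 487.6 and 469.4 CPM in Thy1-high and 271.8 and 344.8 CPM in Thy1-low libraries, against 6.03 and 8.41 CPM in the Pdgfra-/Cd36+ libraries, and YFP was read in every library.

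The dorsal dermis forms from cells below the epidermis of the back, where Wnt ligands act through beta-catenin and its DNA-binding partners of the Lef and Tcf family. The same somitic cells can become brown fat, a heat-producing tissue whose precursors carry the transcription factor *Ebf2* and whose mature cells depend on *Pparg* and its cofactors. Deeper lie the reticular dermis, the fascia and, between muscle and bone, the tendons, whose fibroblasts secrete distinct sets of matrix proteins.

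Of 16775 genes tested with edgeR, 1677 (10.0%) differed between Thy1-high and Thy1-low libraries, with an adjusted p under 0.05 and at least a 2-fold change. In Thy1-high libraries 741 genes were higher (4.42%) and 936 were lower (5.58%). The counts of called members in each gene list below are to be read beside these shares. The 1677 genes all changed in the same direction in both replicates, which the limits used to call them favour with 2 libraries per group. The median log2 fold change over all tested genes was -0.01, which is the value against which the medians of gene lists are set. Fold changes are given throughout as log2 of Thy1-high over Thy1-low, with ± for the standard error (SE) and n = 2 libraries per group. Left without replicate 2 of Thy1-low, the same test called 601 higher and 589 lower, and without replicate 1 of Thy1-low 583 and 645. A named gene that was not called with 1 library left out (always 1 at a time, also where the text says either) is said to lose its call, and the library and the value without it are given in the same paragraph.

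**Figure D1:**
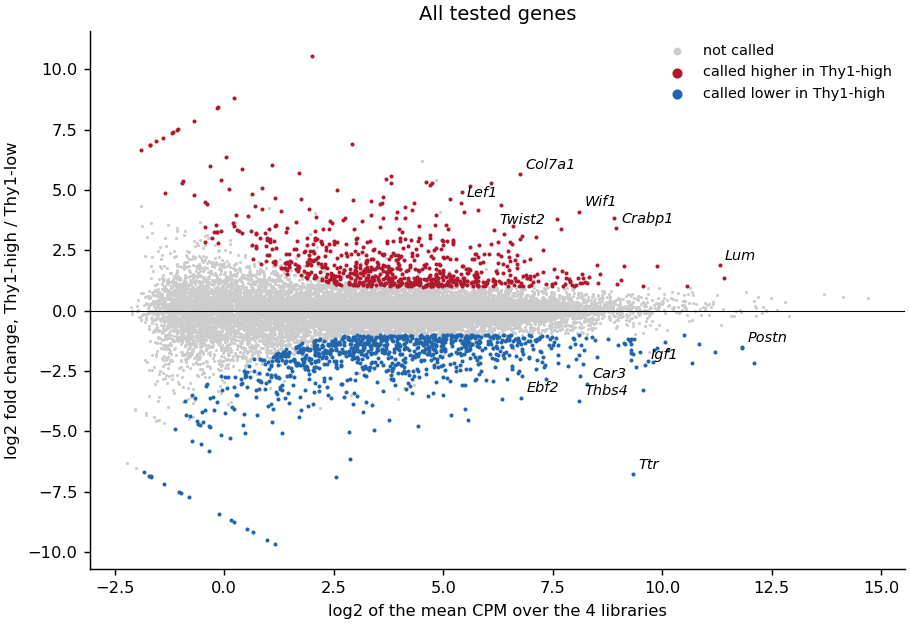
Each point is 1 of 16775 tested genes, with the log2 of its mean CPM over the 4 libraries on the x axis and the log2 fold change of Thy1-high over Thy1-low on the y axis. The 741 red genes were called higher and the 936 blue genes lower, and the slanting rows of points at the left edge are genes with no counts in one of the groups.

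The largest increases, among called genes with a mean of at least 10 CPM, were in genes of several kinds. *Col7a1*, the anchoring fibril collagen that ties dermis to epidermis (chr9:108953586-108984875, GRCm38), led with 280 and 144.5 CPM in Thy1-high libraries against 4.86 and 3.59 CPM in Thy1-low libraries (5.66 ± 0.38, adjusted p = 0.00055). *Lamc3*, a laminin chain, followed with 31.7 and 23.5 against 0.761 and 0.378 CPM. *Apela*, a small secreted hormone, was at 26.5 and 23.8 against 0.870 and 0.236 CPM. The groups stood far apart in all 3, and the replicates differed by the largest factor in Thy1-low for *Apela*. *Masp1*, a protease of the lectin complement pathway, was at 55.7 and 49.1 against 1.70 and 0.992 CPM. *Cldn10*, a tight junction claudin, was at 53.9 and 47.7 against 1.27 and 1.56 CPM. The zinc finger gene *Zfp536* was at 73.1 and 64.4 against 1.99 and 3.83 CPM. *Bcl11b*, *Dkk1*, *Cyp26b1*, *Prdm1* and *Sox18*, also among the 12 largest increases, are transcription factors, a secreted inhibitor or a retinoic acid enzyme, and those on a list are described with it. *Prdm1*, the repressor Blimp1 of the upper dermal lineage and of several blood lineages, was at 86.8 and 79.9 against 4.06 and 1.42 CPM. *Sox18* lost its call without either Thy1-high library (adjusted p = 0.082 without replicate 1 and 0.0842 without replicate 2), and the others described here kept theirs with each of the 4 libraries left out. With no filter on low counts, *Sox18* had an adjusted p of 0.0828.

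The largest decreases held matrix, transport and immune response genes. *Thbs4*, a thrombospondin of tendon, was at 21.7 and 53.1 CPM in Thy1-high against 468.1 and 549 CPM in Thy1-low libraries (-3.73 ± 0.55, adjusted p = 0.026). *Cilp*, first described in the middle layer of cartilage, was at 2.79 and 7.39 against 79.001 and 90.9 CPM. *Adamtsl3*, a secreted ADAMTS-like matrix protein, was at 1.66 and 6.41 against 80.6 and 101.3 CPM. In these genes the Thy1-high libraries differed among themselves by a larger factor than the Thy1-low libraries did, and still lay well below them. *Ssc5d*, a secreted scavenger receptor, stood at 9.19 and 14.4 against 138.9 and 162.5 CPM. *Cldn15*, another claudin, stood at 3.84 and 3.00 against 55.9 and 82.7 CPM. *Agt*, the precursor of angiotensin, stood at 4.37 and 3.41 against 44.4 and 47.995 CPM. *Slc6a15*, a transporter of neutral amino acids, and *Slc14a1*, a urea transporter, were both under 2.1 CPM in each Thy1-high library and at 10.6 to 30.9 CPM in the Thy1-low libraries. *Cxcl9*, a chemokine induced by interferon gamma, was at 0.414 and 2.71 against 34.03 and 48.8 CPM, and the interferon-induced GTPase *Irgm2* at 0.414 and 2.25 against 13.0 and 25.98 CPM. Not all of these calls held with fewer libraries. Without either Thy1-low library, *Cilp* (adjusted p of 0.0563 without replicate 1 and 0.0537 without replicate 2), *Thbs4* (0.175 and 0.217), *Adamtsl3* (0.157 and 0.177), *Cxcl9* (0.163 and 0.194), *Irgm2* (0.089 and 0.128) and *Slc14a1* (0.0938 and 0.101) lost their calls. *Slc6a15* lost it without replicate 1 or 2 of Thy1-high (0.0922 and 0.0548) or replicate 2 of Thy1-low (0.0737). These 7 were also not called when no filter on low counts was set (adjusted p of 0.0525 to 0.209).

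*Ttr*, the thyroxine carrier transthyretin of liver and choroid plexus, had the largest decrease among called genes with a mean of at least 10 CPM (-6.76 ± 0.91, adjusted p = 0.038), but its Thy1-low libraries were far from equal. It was at 13.1 and 10.1 CPM in Thy1-high libraries and at 615 and 1958 CPM in Thy1-low libraries. *Folr1* and *Clic6*, which are also high in choroid plexus epithelium and were looked at after the value of *Ttr* was seen, were at 5.33 and 17.95 CPM and at 3.77 and 8.88 CPM in the Thy1-low libraries and under 0.52 CPM in the Thy1-high libraries. All 3 were thus highest in replicate 2 of Thy1-low. In the Pdgfra-/Cd36+ libraries they were also higher in replicate 2. There *Ttr* was at 2.09 and 53.1 CPM, *Folr1* at 0.241 and 0.850 CPM and *Clic6* at 0.0804 and 0.243 CPM. The liver genes *Alb* and *Afp* did not follow *Ttr*: *Alb* was at 46.2 and 9.99 CPM in Thy1-high and at 52.7 and 0 CPM in Thy1-low libraries, higher in replicate 1 of both sorts. The part of other cell types in the *Ttr* value was not tested. The call of *Ttr* was lost without replicate 1 or 2 of Thy1-high (adjusted p = 0.378 and 0.404), with no filter on low counts (0.102) and with the Pdgfra-/Cd36+ libraries in the fit (0.16). *Folr1* lost its call without replicate 1 of Thy1-high (0.051).

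**Figure D2:**
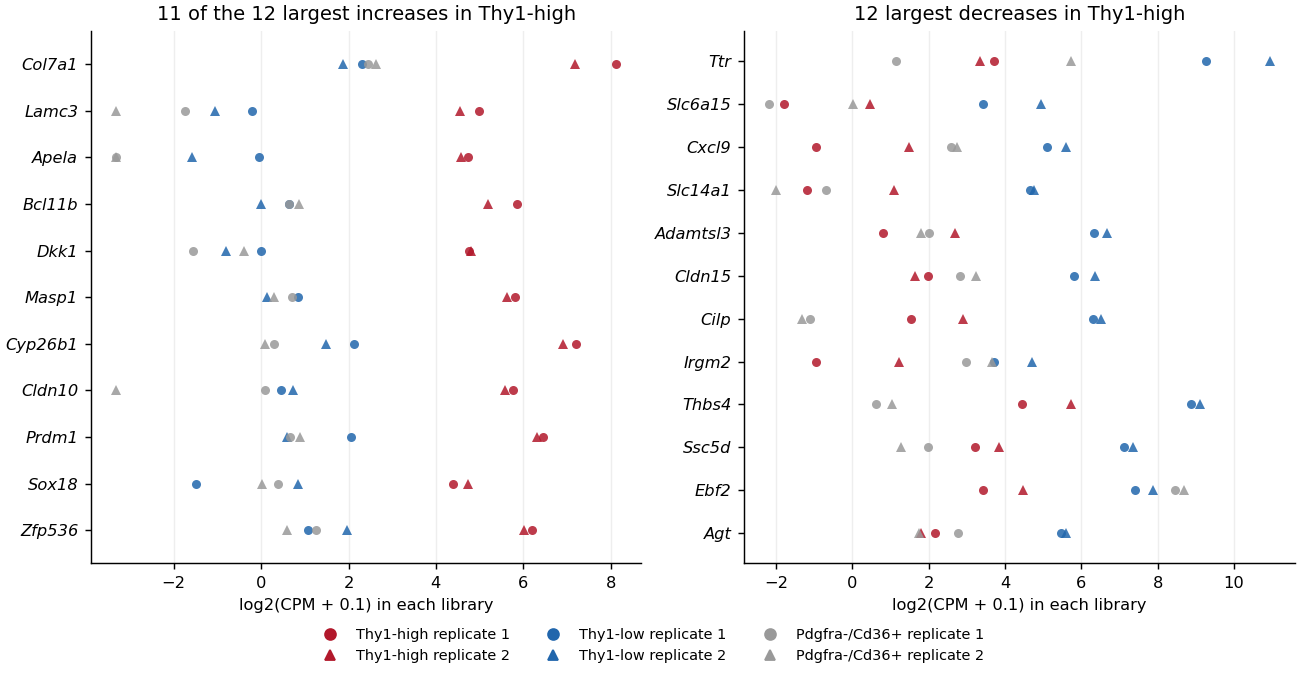
11 of the 12 genes with the largest increase (left) and the 12 with the largest decrease (right) in Thy1-high libraries, with log2(CPM + 0.1) of each library on the x axis, red for Thy1-high, blue for Thy1-low and grey for Pdgfra-/Cd36+, circles for replicate 1 and triangles for replicate 2. Red and blue points do not overlap for any of the 23 genes, which were chosen for large changes of the same direction in both replicates. *Ebf2* is the one gene on the right whose grey points lie above the blue ones.

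Genes of the dermal fibroblast programme were higher in Thy1-high libraries. Of 20 tested dermal transcription factors 13 were higher and 3 lower, with a median log2 fold change of 1.35. *Twist2*, a basic helix-loop-helix factor needed for a full dermis (chr1:91801461-91848028), was at 154.2 and 104.3 CPM in Thy1-high and 17.5 and 8.08 CPM in Thy1-low libraries (3.35 ± 0.41, adjusted p = 0.0059). *Bcl11b*, a zinc finger repressor, was at 58.1 and 36.5 against 1.45 and 0.898 CPM. *Sox18*, a factor of the dermal papilla and of vessels, was at 20.9 and 26.7 against 0.254 and 1.70 CPM. Each of these separated the groups in both replicates. *Mef2c* was at 177.3 and 178.4 against 16.3 and 15.6 CPM, and *Trps1* at 201.2 and 212.3 against 38.2 and 56.5 CPM. Increases of 1.80 or less were found in *Prrx2*, *Zeb2*, *Tbx18*, *Twist1* and *Prrx1*. *Foxd1* and *Msx2* also rose, at no more than 4.56 CPM in any library. The 3 factors that fell were *Hic1* (-1.98 ± 0.25), a marker of mesenchymal progenitors, *Zeb1* (-1.73 ± 0.23) and *Bnc2* (-1.72 ± 0.21). *Zeb1* and *Zeb2*, close relatives, thus moved in opposite directions. *Tbx15* (0.69 ± 0.14, adjusted p = 0.012) was under 2-fold, and *En1*, a homeobox factor of the dorsal dermis, was at 6.44 and 4.73 against 4.57 and 3.02 CPM and did not pass the test (adjusted p = 0.35). Calls were lost without a library for *Foxd1* (adjusted p = 0.24 without Thy1-high replicate 1 and 0.134 without Thy1-low replicate 1), *Prrx2* (0.0574 without Thy1-high replicate 1 and 0.105 without Thy1-low replicate 2), *Twist1* (0.128 and 0.175 without the same libraries) and *Tbx18* (0.0509 without Thy1-low replicate 2). *Msx2* lost its call without Thy1-high replicate 2 (0.183) or either Thy1-low library (0.0836 and 0.104). *Twist2* had an adjusted p of 0.0681 with no filter on low counts.

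Upper dermal genes had the highest median of the lists and none of them was called lower. Of 14 tested genes of the upper dermis and the dermal condensate, the cell cluster under each hair placode, 10 were higher and none lower, with a median of 2.44. *Axin2*, *Apcdd1*, *Dkk1* and *Wif1*, all higher, are also members of the Wnt lists described below. *Crabp1*, a cytoplasmic carrier of retinoic acid, was at 804 and 995 against 81.5 and 91.3 CPM (3.41 ± 0.17, adjusted p = 1.5e-05). *Frem1*, a matrix protein of the border to the epidermis, was at 270 and 229.1 against 31.6 and 29.4 CPM. The replicates of both genes lay close together. *Nrp2*, *Col23a1* and *Ntn1* rose by 1.93, 1.30 and 1.13. *Lrig1* (0.97 ± 0.16) missed the 2-fold limit, and *Bmp4* was at 33.3 and 31.98 against 38.8 and 31.04 CPM. *Dkk2* was lower in both replicates but not called (-0.56 ± 0.17, adjusted p = 0.058). Lower dermis and fascia genes were called only in the other direction, with none of 13 higher, 6 lower and 7 not called (median -0.43). *Tnxb*, a tenascin of deep connective tissue, was at 21.01 and 20.96 against 163.5 and 143.9 CPM (-2.84 ± 0.14, adjusted p = 1.5e-05). *Mgp*, an inhibitor of calcification, was at 22.2 and 35.4 against 193.9 and 191.7 CPM. *Clec3b*, *Gpx3*, *Dlk1* and *Mfap5* fell by 1.83, 1.78, 1.62 and 1.16, and *Dlk1*, the preadipocyte factor Pref-1, still had 541.4 and 554 CPM in Thy1-high libraries. The adventitial progenitor genes *Dpp4*, *Pi16* and *Cd34* did not pass the test, with log2 fold changes of 0.15, -0.10 and -0.39. *Ly6a*, of the same list, was higher in both replicates but did not pass either (0.63 ± 0.25, adjusted p = 0.14). *Mfap5* was under 2-fold without Thy1-low replicate 1 (-0.97), and *Ntn1* without Thy1-high replicate 1 (0.98) or Thy1-low replicate 2 (0.93). With the Pdgfra-/Cd36+ libraries in the fit, *Mfap5* had an adjusted p of 0.235.

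Wnt signalling genes are given in the order of the pathway, from ligands to feedback genes. Among 11 tested ligands, *Wnt10a* and *Wnt6* were higher and none was lower (median 0.46). *Wnt10a* was at 4.97 and 3.41 CPM in Thy1-high and had 3 counts in total in the Thy1-low libraries, a ratio of 70.7 with a 95% counting interval of 23.8 to 346.1. *Wnt6* was at 3.84 and 1.91 against 0.254 and 0.661 CPM. *Wnt5a*, a ligand that acts largely without beta-catenin, was at 113.2 and 118.8 against 72.2 and 61.98 CPM, a difference of 0.82 ± 0.14 that passed the test (adjusted p = 0.0041) but not the 2-fold limit. Of 17 receptors, none was higher and 3 frizzled genes were lower (median 0.13). *Fzd4* was at 11.1 and 8.31 against 45.2 and 53.6 CPM (-2.31 ± 0.22, adjusted p = 0.00022), and *Fzd8* and *Fzd5* fell by 1.82 and 1.42. *Fzd10* was at 1.43 and 1.44 against 0.290 and 0.0472 CPM with an adjusted p of 0.057. *Wnt6* lost its call without replicate 1 of either sort (adjusted p = 0.202 without that of Thy1-high and 0.141 without that of Thy1-low). *Fzd8* and *Fzd5* lost theirs without Thy1-high replicate 2 (0.159 and 0.0695), Thy1-low replicate 1 (0.0933 and 0.0949) or Thy1-low replicate 2 (0.228 and 0.0867).

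Secreted Wnt modulators changed in both directions, with 5 of 15 higher and 3 lower (median 1.35). *Dkk1*, which blocks the Lrp co-receptors (chr19:30545863-30549665), was at 26.8 and 27.8 against 0.906 and 0.472 CPM (5.29 ± 0.33, adjusted p = 4.6e-05). *Wif1*, which binds Wnt proteins (chr10:121033960-121100650), was at 518.1 and 520.9 against 32.3 and 29.5 CPM (4.10 ± 0.13, adjusted p = 5.2e-06). *Sfrp5*, a secreted frizzled-related protein, was at 25.3 and 13.97 against 0.689 and 1.04 CPM. In these inhibitors every Thy1-high library lay far above both Thy1-low libraries. The other secreted frizzled-related genes did not share a direction, since *Frzb* rose by 1.35 while *Sfrp1* and *Sfrp4* fell. *Sfrp1* was at 10.2 and 15.01 against 94.5 and 91.7 CPM (-2.86 ± 0.22), *Sfrp4* at 6.63 and 12.4 against 47.3 and 44.03 CPM, and *Sfrp2* did not pass the test (adjusted p = 0.16). The R-spondins, which strengthen Wnt signals, were split as well. *Rspo3* was at 52.9 and 43.5 against 17.9 and 19.5 CPM, and *Rspo2* at 0.527 and 2.31 against 10.1 and 12.6 CPM. *Rspo2* lost its call without either Thy1-low library (adjusted p = 0.0796 and 0.101), and *Frzb* without replicate 1 of Thy1-high (0.0594) or of Thy1-low (0.116).

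Wnt nuclear factors and feedback genes, several of which are standard readouts of beta-catenin activity, were higher in 7 of 12 cases and lower in none, with a median of 2.19. *Lef1*, the DNA-binding partner of beta-catenin (chr3:131110471-131224356), was at 82.8 and 80.4 against 2.68 and 4.91 CPM (4.47 ± 0.28, adjusted p = 7.1e-05). *Axin2*, a scaffold that feeds back on beta-catenin, was at 20.7 and 17.3 against 1.23 and 1.28 CPM (3.95 ± 0.29). *Tcf7* was at 8.06 and 8.20 against 0.978 and 1.32 CPM. All 3 were at or near their Thy1-low level in the Pdgfra-/Cd36+ libraries, where *Lef1* was at 2.78 and 3.88 CPM. The membrane inhibitor *Apcdd1* rose by 2.95, the Dishevelled antagonists *Nkd1* and *Nkd2* by 2.48 and 2.36, and the Dkk receptor *Kremen1* by 2.02. The beta-catenin gene *Ctnnb1* itself was at 181.8 and 190.99 against 183.2 and 167.1 CPM (0.12 ± 0.12), and *Tcf7l2* was lower by less than 2-fold (-0.50 ± 0.12, adjusted p = 0.022).

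Because these 7 genes moved together, RefSeq promoter windows were searched for the letters CTTTGA, the core of the site that Lef and Tcf proteins bind, on both strands. Of the 7 genes 5 had a window, 9 windows in all, each taken as the 250 bases before an annotated start on GRCm38.p6. One of the 9 windows held the letters, beside 13.8% of all 32851 windows. It lies before an internal start of *Lef1* on the plus strand, at chr3:131156044-131156293. *Dkk1*, added after its values were seen, holds them at chr19:30549497-30549746 on the minus strand. Both windows are printed 5′ to 3′ along the gene, with the matches in capitals, to show where the letters fall.
*Lef1* internal start: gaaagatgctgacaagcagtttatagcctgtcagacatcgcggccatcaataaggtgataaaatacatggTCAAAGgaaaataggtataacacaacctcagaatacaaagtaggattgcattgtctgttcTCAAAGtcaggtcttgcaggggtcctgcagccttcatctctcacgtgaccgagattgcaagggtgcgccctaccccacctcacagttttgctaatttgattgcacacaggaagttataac
*Dkk1*: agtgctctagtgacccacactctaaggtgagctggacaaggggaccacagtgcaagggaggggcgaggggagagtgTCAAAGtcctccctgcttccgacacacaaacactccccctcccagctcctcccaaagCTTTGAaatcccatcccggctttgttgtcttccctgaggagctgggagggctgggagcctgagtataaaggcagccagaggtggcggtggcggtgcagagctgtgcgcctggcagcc
Each window held 2 matches. In *Lef1* both read TCAAAG, the reverse complement of the searched letters. In *Dkk1* there was 1 match on each strand. A match is a run of letters and not a measured binding site.

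Hedgehog signalling genes were called in 1 direction only. Of 12 tested genes 5 were higher, none was lower and 7 were not called, with a median of 0.36. *Ptch1*, the hedgehog receptor and a direct target of the pathway (chr13:63508328-63573598), was at 173.2 and 157.04 against 27.4 and 22.2 CPM (2.76 ± 0.15, adjusted p = 2.3e-05). *Gli1*, a transcription factor that is itself a target, was at 56.8 and 47.9 against 13.2 and 9.68 CPM (2.22 ± 0.21). *Gli2*, *Gas1* and *Hhip* rose by 1.25, 1.21 and 1.12. The genes that rose include targets and receptors, while *Smo*, the signal transducer, was at 40.1 and 40.1 against 50.4 and 44.8 CPM, and *Gli3* and *Boc* differed by 0.06 and -0.13. The ligands *Shh* and *Ihh* did not pass the filter on low counts. *Hhip* was just under 2-fold without Thy1-low replicate 1, with an adjusted p of 0.043, and *Gli2* had an adjusted p of 0.106 with the Pdgfra-/Cd36+ libraries in the fit.

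Adipogenic genes were lower in Thy1-high libraries in 5 of 19 factors and in 14 of 28 mature adipocyte genes. Of the tested transcription factors and cofactors 1 was higher and 13 were not called (median -0.62). *Ebf2*, the marker of brown fat precursors (chr14:67233292-67430918), was at 10.7 and 22.2 against 169.02 and 236.9 CPM (-3.61 ± 0.44, adjusted p = 0.0096). Its relative *Ebf3* was at 3.54 and 3.23 against 27.6 and 23.5 CPM. *Ebf1*, the third of the family, was at 178.8 and 161.7 against 174.1 and 171.3 CPM. *Cebpd*, an early adipogenic factor, was at 3.80 and 4.68 against 16.8 and 31.6 CPM, and *Nr1h3*, the liver X receptor alpha, and the cofactor gene *Ppargc1a* fell by 2.19 and 1.33. *Pparg*, the central factor of adipocytes, was at 17.1 and 13.3 against 24.8 and 25.7 CPM and missed the test (-0.70 ± 0.21, adjusted p = 0.055). *Prdm16* (adjusted p = 0.28) and *Cebpa* (adjusted p = 0.39) did not pass either, and *Rxrg* was the one factor that rose (1.34 ± 0.38). In the Pdgfra-/Cd36+ libraries, sorted for adipocytes, *Ebf2* was at 348.2 and 415.8 CPM and *Pparg* at 281.5 and 268.6 CPM. For *Ebf2* the Thy1-low libraries were thus nearer to the Pdgfra-/Cd36+ libraries, and for *Pparg* nearer to the Thy1-high libraries. *Ebf2* lost its call without replicate 1 or 2 of Thy1-low (-3.84 with an adjusted p of 0.0626, and -3.32 with 0.056) and with no filter on low counts (adjusted p = 0.0879). *Ppargc1a* lost it without replicate 1 of Thy1-high (0.055) or of Thy1-low (0.0952), and *Rxrg* with any 1 library left out (0.0988 to 0.162), so that without Thy1-low replicate 1 3 of the list remained lower.

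Of 28 tested adipocyte and brown fat genes 14 were lower and none higher, with a median of -1.20. *Car3*, a carbonic anhydrase of adipocytes (chr3:14863512-14872523), was at 66.4 and 67.8 against 534.2 and 574 CPM (-3.02 ± 0.13, adjusted p = 1e-05). *Adipoq*, which encodes adiponectin, was at 6.02 and 4.10 against 53.5 and 64.9 CPM (-3.51 ± 0.24). *Fabp4*, a fatty acid carrier, was at 31.7 and 30.9 against 161.6 and 200 CPM. The replicates of these genes were close in both groups. Genes of fatty acid uptake (*Lpl*, *Cd36*), glycerol synthesis (*Gpd1*) and lipid droplets (*Cidea*, *Cidec*) fell by 2.02, 1.92, 2.43, 2.48 and 2.47, and *Ucp1*, the uncoupling protein of brown fat, was at 1.47 and 0.808 against 6.23 and 4.35 CPM. *Cfd*, complement factor D of adipocytes, had no counts in either Thy1-high library and was at 0.870 and 1.09 CPM in Thy1-low libraries, at least 14.1-fold higher against a floor of 3 counts over the group. *Cox8b*, a subunit of mitochondrial cytochrome oxidase, had 2 counts in Thy1-high and 65 in Thy1-low libraries, a ratio of 29.3 with a 95% counting interval of 7.78 to 246.6. Of the lipid synthesis genes, *Fasn*, *Acaca* and *Agpat2* did not pass the test, with adjusted p of 0.42, 0.081 and 0.63. *Acly* (-0.92 ± 0.14, adjusted p = 0.0024) and *Scd1* (-0.91 ± 0.21, adjusted p = 0.019) passed it and were lower by less than 2-fold. Summed over the list, the Thy1-low libraries reached 7.02% and 7.57% of the mean Pdgfra-/Cd36+ level and the Thy1-high libraries 2.73% and 2.73%. These shares depend on *Car3*, which alone was at 21069 and 19735 CPM in the Pdgfra-/Cd36+ libraries. Without *Car3* the sums were 884 and 882 CPM in Thy1-high and 1906 and 2058 CPM in Thy1-low libraries. In the Pdgfra-/Cd36+ libraries they were 15007 and 13693.5 CPM. Mitochondrial genes took 20.8% and 15.9% of all counts there, against 3.48% to 4.35% in the Thy1-sorted libraries. CPM values set against the Pdgfra-/Cd36+ libraries are not corrected for this. In bulk RNA, fewer cells of a type and less RNA per cell cannot be told apart, here or in any other list. *Ucp1* lost its call without Thy1-low replicate 1 (adjusted p = 0.106). *Cfd* lost it without Thy1-high replicate 1 (0.0675) or either Thy1-low library (0.0929 and 0.119), and *Cox8b* without Thy1-high replicate 2 (0.0604) or either Thy1-low library (0.128 and 0.0986).

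**Figure D3:**
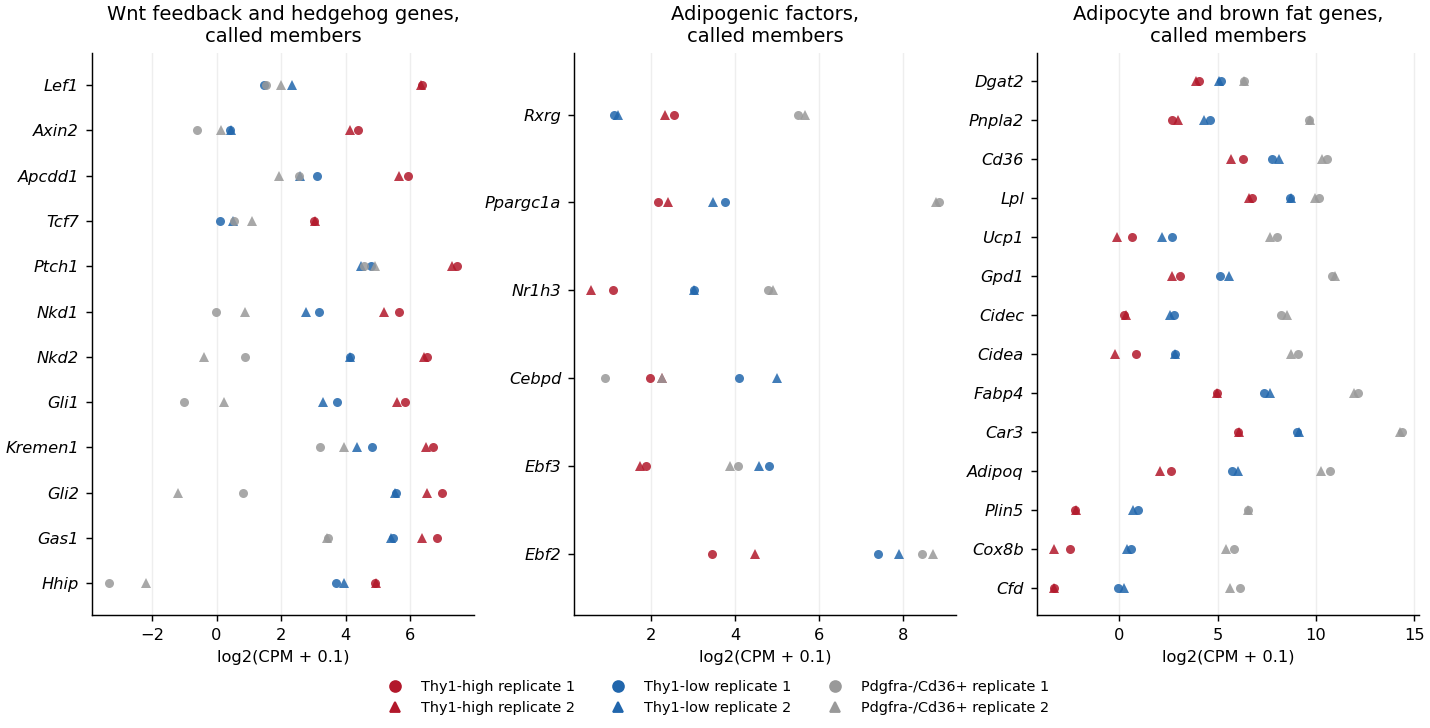
The called members of the Wnt feedback and hedgehog lists (left), of the adipogenic factors (middle) and of the adipocyte and brown fat genes (right), with log2(CPM + 0.1) of each library on the x axis, red for Thy1-high, blue for Thy1-low, grey for Pdgfra-/Cd36+, circles for replicate 1 and triangles for replicate 2. In the right panel the blue points lie between red and grey for all 14 genes, while in the left panel red points lie highest for all 12.

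Growth factor systems differed in their ligands and receptors. None of 14 insulin-like growth factor genes was higher and 7 were lower in Thy1-high libraries (median -1.00). *Igf1* (chr10:87858265-87937042) was at 210.8 and 330 against 1183 and 1416 CPM (-2.23 ± 0.24, adjusted p = 0.001), *Igf2* at 1001 and 1185 against 3686 and 3655 CPM (-1.71 ± 0.14) and the binding protein gene *Igfbp4* at 265.96 and 378.5 against 1447 and 1455 CPM (-2.14 ± 0.19). Of the receptor genes, *Igf2r*, whose product clears *Igf2*, was lower at 179.1 and 200 against 385.1 and 462.9 CPM (-1.13 ± 0.14), and *Igf1r* was at 54.3 and 38.7 against 57.98 and 52.6 CPM (adjusted p = 0.48). Of 19 Fgf genes 5 were higher and 3 lower (median 0.44). The receptors *Fgfr2*, at 98.1 and 70.7 against 12.0 and 16.1 CPM, *Fgfr3* and *Fgfr4* rose, as did *Dusp6*, an early target of Fgf signals, at 230 and 210 against 109.3 and 98.3 CPM. *Spry1*, *Spry2*, *Spry4*, *Etv4* and *Etv5*, also targets of Fgf signals, were not called. *Fgf13*, which acts inside the cell and not as a ligand, was called higher at 20.1 and 16.3 against 9.53 and 8.74 CPM (1.02 ± 0.23). The ligands *Fgf18*, *Fgf1* and *Fgf2* fell by 3.55, 2.16 and 1.14. In the Pdgf system only *Pdgfrb* was called among 7 genes, at 195.5 and 193.9 against 62.98 and 82.3 CPM. *Fgf2* lost its call without Thy1-high replicate 2 (adjusted p = 0.0788) or Thy1-low replicate 1 (0.197), and without the latter 4 Igf genes were called lower. *Fgf13* lost its call without Thy1-high replicate 1 (0.0659) or either Thy1-low library (0.0636 and 0.083), and *Igf2r* was just under 2-fold without Thy1-high replicate 1 or Thy1-low replicate 2. With the Pdgfra-/Cd36+ libraries in the fit, the calls of *Fgf2* (0.126) and *Fgfr4* (0.0848) were lost.

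Bmp and Tgf-beta genes were mixed. Of 17 ligands *Inhbb* and *Bmp3* were higher and *Bmp5*, *Tgfb3*, *Bmp2* and *Tgfb2* lower (median -0.07). *Bmp5* was at 2.18 and 5.95 against 26.96 and 38.6 CPM, and *Tgfb3* at 42.6 and 53.9 against 127.2 and 154.3 CPM. Of 23 receptor, antagonist and target genes 2 were higher and 3 lower (median -0.24), beside 4.42% and 5.58% of all tested genes. The Bmp antagonists did not share a direction. *Nog* rose by 2.34, while *Bmper*, at 17.9 and 15.2 against 113.9 and 136.7 CPM, *Chrd* and *Chrdl1* fell. Receptors such as *Bmpr1a* and *Bmpr2* did not pass the test, with log2 fold changes of -0.15 and -0.37. *Bmp5* lost its call without either Thy1-low library (adjusted p = 0.0539 and 0.0664), *Nog* without Thy1-low replicate 2 (0.0869), *Bmp2* without Thy1-high replicate 2 (0.0901) or Thy1-low replicate 1 (0.137), and *Tgfb2* without Thy1-high replicate 1 (-0.90) or Thy1-low replicate 1 (-0.80). *Chrd* had an adjusted p of 0.0968 with the Pdgfra-/Cd36+ libraries in the fit.

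Retinoid genes, which make, bind or degrade the signal molecule retinoic acid, changed in both directions, with 5 of 20 higher and 7 lower (median -0.97). *Cyp26b1*, which degrades retinoic acid, was at 147.3 and 120 against 4.28 and 2.69 CPM (5.27 ± 0.23, adjusted p = 1.1e-05). The receptor gene *Rarg* was at 92.8 and 79.9 against 26.5 and 31.8 CPM. Among enzymes that make retinal or retinoic acid, *Adh7* rose by 4.17, whereas *Adh1*, *Aldh1a3*, *Aldh1a1* and *Rdh10* fell by 3.07, 1.91, 1.19 and 1.04. The enzymes therefore did not all move one way. *Crabp1*, described above, and *Crabp2*, at 20.7 and 24.1 against 78.9 and 80.4 CPM, are carriers of the same molecule and moved in opposite directions. *Aldh1a2* was at 1.17 and 5.72 against 30.3 and 31.7 CPM but did not pass the test (adjusted p = 0.059). *Aldh1a1* lost its call without Thy1-high replicate 2 (adjusted p = 0.118) or either Thy1-low library (0.184 and 0.0771), and *Rdh10* was under 2-fold without Thy1-high replicate 1 (-0.93) or Thy1-low replicate 2 (-0.83).

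Matrix genes changed in both directions. The main fibrillar collagens *Col1a1*, *Col1a2* and *Col3a1* were higher in Thy1-high libraries by less than 2-fold (0.57 ± 0.15, 0.68 ± 0.13 and 0.53 ± 0.14), and of 11 fibrillar collagens only *Col11a1* and *Col5a3* were called, both lower (median -0.12). Of 33 other collagens 4 were higher and 7 lower (median -0.55). Beside *Col7a1*, *Col8a1*, *Col26a1* and *Col23a1* rose, and *Col26a1* was at 303.4 and 260 against 85.9 and 87.6 CPM. *Col8a2*, the partner chain of *Col8a1*, fell by 2.67, with *Col6a6*, *Col15a1*, *Col4a4*, *Col18a1*, *Col14a1* and *Col22a1*. *Col14a1*, which coats fibrils, was at 256.4 and 306.4 against 943 and 1014 CPM. Of 18 laminin and basement membrane genes *Lamc3* and *Frem1* were higher and *Nid2*, *Lamb1* and *Nid1* lower (median -0.40), and *Nid2*, a nidogen, was at 198.3 and 272.7 against 870 and 1142 CPM. Without Thy1-low replicate 2, 4 of the other collagens were called lower, since *Col18a1* (adjusted p = 0.0657), *Col22a1* (0.249) and *Col4a4* (0.065) lost their calls. *Col22a1* also lost it without Thy1-high replicate 2 (0.0988), and *Col4a4* without Thy1-high replicate 1 (0.0745) or Thy1-low replicate 1 (0.115). *Nid1* was under 2-fold without Thy1-high replicate 1 (-0.97) or Thy1-low replicate 2.

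Of 32 proteoglycan, elastic fibre and matricellular genes 2 were higher and 10 lower (median -0.43). *Lum*, a small keratan sulphate proteoglycan, was at 3892 and 4071 against 1183 and 1027 CPM (1.88 ± 0.13, adjusted p = 7.3e-05), and *Fbln1* rose by 1.03. *Postn*, a matricellular protein, was at 1751 and 1969 against 5866 and 4979 CPM (-1.51 ± 0.15, adjusted p = 0.00027). *Ogn* and *Aspn*, small proteoglycans of the same family as *Lum*, were lower instead, *Ogn* at 270 and 343.98 against 1288 and 1376 CPM. Of 10 tendon genes 6 were lower and none higher (median -1.19). *Tnmd*, tenomodulin, was at 32.5 and 47.7 against 271.4 and 304.6 CPM (-2.81 ± 0.21). *Scx*, the factor that defines tendon cells, had no counts in Thy1-high libraries and was at 2.25 and 2.41 CPM in Thy1-low libraries, at least 33.9-fold higher against 3 counts over the group. *Mkx*, *Chodl* and *Ptx4* fell too, as did *Thbs4*. Without either Thy1-low library 3 tendon genes were called, since *Thbs4*, *Mkx* (adjusted p = 0.0539 and 0.147) and *Ptx4* (0.128 and 0.162) lost their calls. *Mkx* and *Ptx4* also lost theirs without Thy1-high replicate 1 (0.0762 and 0.127). *Aspn* lost its call without either Thy1-low library (0.0507 and 0.0502), and *Fbln1* was just under 2-fold without Thy1-low replicate 2.

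Guidance genes included several large increases. Of 15 Robo, Slit and netrin genes 5 were higher and 2 lower (median 1.00). The receptor *Robo2* was at 396.4 and 351.3 against 38.7 and 33.6 CPM (3.40 ± 0.14, adjusted p = 8.4e-06), and its ligands *Slit3* and *Slit2* rose by 2.76 and 1.598. Receptor and ligands therefore rose together, while *Robo1* (adjusted p = 0.06) did not pass and the netrin receptors *Dcc* and *Unc5c* fell. Of 30 semaphorin, plexin and neuropilin genes 6 were higher and 3 lower (median 0.19), led by *Plxna4*, at 42.3 and 34.5 against 1.99 and 1.51 CPM. Of 21 ephrin genes and receptors 3 were higher and 2 lower (median 0.28), and *Efna5* was at 281.5 and 250 against 45.9 and 48.1 CPM. Of 24 chemokine and complement genes 6 were higher and 4 lower (median -0.28). *Cxcl14* was at 150 and 118.2 against 23.7 and 14.503 CPM, while *C1s1*, the classical complement protease, was at 13.4 and 17.5 against 93.3 and 102.2 CPM. *Dcc* lost its call without either Thy1-low library (adjusted p = 0.0579 and 0.104), and *Unc5c* without Thy1-high replicate 1 (0.0755) or Thy1-low replicate 2 (0.14). Without either of the last 2 libraries 3 Robo, Slit and netrin genes were called higher, and without Thy1-low replicate 2 so were 3 chemokine and complement genes.

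Of 31 cell cycle genes 2 were called higher, the spindle checkpoint genes *Bub1* and *Bub1b*, and none lower, with a median of 0.59. Over all tested genes 4.42% were called higher, so this count is near the general share. Without a minimum fold, 15 of them were higher and 1, *Ccne1*, was lower. *Top2a* was at 277.9 and 319.3 against 141.4 and 173.1 CPM (0.96 ± 0.15, adjusted p = 0.0034), and *Mki67* at 119.4 and 160.6 against 78.5 and 90.04 CPM. The increases were thus below 2-fold for most of the list. *Bub1b* was under 2-fold without Thy1-high replicate 2 (0.96).

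**Figure D4:**
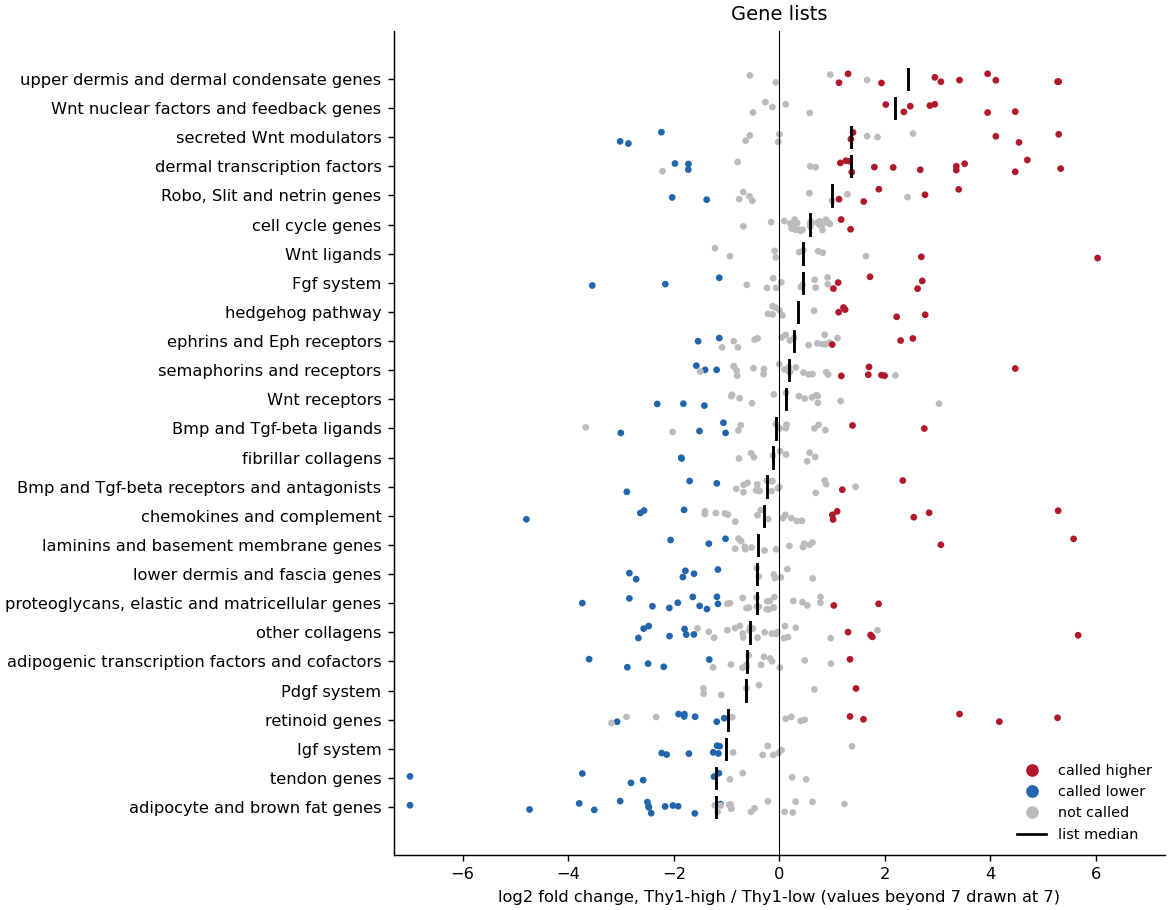
Each row is a gene list and each point a tested member, with the log2 fold change of Thy1-high over Thy1-low on the x axis, red for genes called higher, blue for genes called lower, grey for those not called and a black bar for the list median, with the marker lists of other cell types not drawn. Among the lists drawn, the upper dermis and Wnt feedback lists have the highest medians, 2.44 and 2.19, and the adipocyte and tendon lists the lowest, -1.20 and -1.19. *Axin2* and *Apcdd1* belong to both the upper dermis and the Wnt feedback list. All lists were chosen with earlier results of these data known.

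Markers of other cell types were read beside these results. Of 14 muscle markers only *Tnnt1* was called, lower in Thy1-high libraries, and the summed level of the list was 85.8 and 152.9 CPM against 190 and 235.02 CPM, with *Pax7* under 1.3 CPM in every library. Of 9 keratinocyte markers *Krt5* and *Krt15* were higher, and the sum was 40.5 and 30.8 CPM against 21.7 and 15.02 CPM, with *Krt14* at 8.43 and 7.39 against 0.906 and 0 CPM. These epidermal markers moved in the same direction as *Col7a1*, *Wnt10a* and *Wnt6*, which keratinocytes also express, and their part in those values was not tested. Of 9 neuron markers *Stmn2* and *Map2* were higher and *Snap25* and *Nefm* lower. The neuron sum was 157.5 and 144.7 CPM against 52.1 and 37.8 CPM, but without *Stmn2* it was 52.1 and 41.05 CPM against 45.4 and 32.7 CPM. Of 7 glia and Schwann cell markers *Ngfr* and *S100b* were lower, with a sum of 70.8 and 77.9 against 161.7 and 202.3 CPM, while *Sox10* stayed under 1 CPM in every library. *Tnnt1* lost its call without Thy1-high replicate 1 (adjusted p = 0.125) or either Thy1-low library (0.064 and 0.205), *Krt15* without Thy1-high replicate 1 (0.0541) or Thy1-low replicate 2 (0.0701), and *Snap25* without Thy1-high replicate 2 (0.0563) or either Thy1-low library (0.0533 and 0.129). *Nefm* (0.0633) and *S100b* (0.064) lost theirs without Thy1-low replicate 1. With the Pdgfra-/Cd36+ libraries in the fit, *Krt5* (0.217) and *Ngfr* (0.0628) were not called.

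Of 9 cartilage and bone markers *Sp7* and *Runx2*, the factors of the osteoblast lineage, were higher and *Sox9*, the factor of cartilage, was lower. *Sp7* was at 22.7 and 23.9 against 0.580 and 1.65 CPM (4.45 ± 0.44, adjusted p = 0.00045), and *Sox9* at 27.7 and 34.9 against 141.6 and 173.98 CPM (-2.30 ± 0.18). The summed level of the list was 360.8 and 303.2 CPM against 422.4 and 520 CPM. None of 8 pericyte and smooth muscle markers was called, but *Rgs5* was at 106.1 CPM in replicate 2 of Thy1-high and at 3.17 to 8.77 CPM in the other 3 libraries, and the sums were 190 and 470 against 294.2 and 300.7 CPM. Of 8 endothelial markers *Tie1* was higher, with sums of 101.04 to 109.6 CPM in all 4 libraries. None of 13 blood and immune markers was called, with sums of 1011 and 582 against 869 and 670 CPM, mostly from globins, and none of 5 T cell markers, with sums of 10.7 and 10.05 against 6.27 and 7.18 CPM. Of 5 melanocyte markers *Dct* was higher and *Pmel* lower, with sums of 43.3 and 58.3 against 23.2 and 32.03 CPM. Of 4 mesothelial markers *Krt19* was lower, with sums of 8.39 and 6.81 against 16.8 and 15.9 CPM. Of 5 surface genes of sorts and of progenitors (*Pdgfra*, *Cd36*, *Cd34*, *Ly6a* and *Itga7*), *Cd36* was lower, with sums of 1062 and 994 against 1144 and 1138 CPM. *Tie1* lost its call without Thy1-high replicate 2 (adjusted p = 0.237) or either Thy1-low library (0.168 and 0.119), as did *Dct* (0.0633 without the first, then 0.103 and 0.0784). *Pmel* lost its call without replicate 2 of Thy1-high (0.0761) or of Thy1-low (0.19), and *Krt19* without Thy1-low replicate 1 (0.0816).

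The same genes were then read in single cells, which the choice of the bulk libraries did not use. The E16.5 cells of the Smart-seq2 table with at least 10 CPM of *Pdgfra* were split at 10 CPM of *Thy1*. The 74 cells at or above it are called Thy1-positive here and the 92 cells below it Thy1-negative. Only 45 of the 92 were under 1 CPM of *Thy1*, so the negative set is not free of it. The authors' expected counts were summed over each set. With no replicate cultures or animals named for these cells, the values are a description. Of the bulk genes called higher, 686 had at least 2 CPM over the 2 sets added together, and 626 of them (91.3%) were higher in the Thy1-positive cells, beside 43.04% of all 13289 genes measured. Of those called lower in bulk, 857 were measured and 831 (96.97%) were lower. Their median log2 ratio in cells was -1.63, beside -0.10 over all genes measured. With the split at 1 CPM the shares of the higher and lower bulk calls were 93.2% and 87.6%, and 51.3% of all genes measured were higher. At 50 CPM they were 86.9% and 97.6%, with 43.9% of all genes higher.

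*Lef1* was at 137.5 CPM in Thy1-positive and 19.2 CPM in Thy1-negative cells, with reads in 72.97% and 36.96% of cells. *Twist2* was at 916 and 99.5 CPM, with reads in 97.3% and 47.8%. *Sfrp5* was at 64.6 and 0.164 CPM. *Ebf2* ran opposite to these, at 17.1 and 270.7 CPM and in 16.2% and 85.9% of cells. *Adipoq* was found in few cells of either set. It was at 7.30004 and 178.04 CPM but in 4.05% and 15.2% of cells, and its log2 ratio changed from -4.43 to 0.16 when the split was set at 1 CPM. *Stmn2*, 4.15 higher in bulk on the log2 scale, was at 174.5 and 166.3 CPM in the 2 sets of cells, in 52.7% and 10.9% of them. Some of the largest bulk increases were also much smaller in the cells at this split. *Lamc3* was at 9.28 and 6.87 CPM, *Dkk1* at 21.6 and 12.9 CPM and *Sox18* at 30.9 and 18.2 CPM. These differences depended on the split. At 1 CPM of *Thy1* the log2 ratios of *Stmn2*, *Lamc3* and *Sox18* went from 0.07, 0.38 and 0.73 to 5.28, 3.51 and 2.63. That of *Dkk1* went only from 0.70 to 0.91. At 50 CPM the ratios of *Stmn2*, *Lamc3*, *Sox18* and *Dkk1* were 0.15, 0.69, 1.56 and 0.32. *Col7a1* kept a large difference, at 195.4 and 25.7 CPM. *Ttr*, with the largest decrease of the 12 in bulk, was at 0 and 0.0136 CPM.

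**Figure D5:**
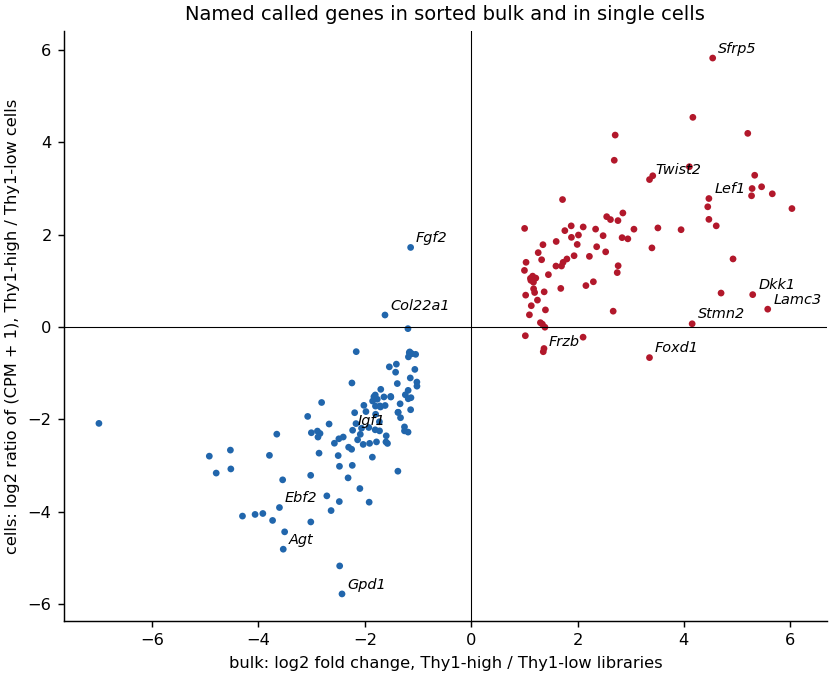
Each point is a called gene of the lists or of these 23 largest changes with at least 2 CPM in the cells, with the bulk log2 fold change on the x axis (values beyond -7 drawn at -7) and the log2 ratio of CPM + 1 between Thy1-positive and Thy1-negative Pdgfra+ cells of E16.5 on the y axis. Of 85 genes higher in bulk 79 lie above 0, and 98.1% of the genes lower in bulk lie below 0, and the exceptions include *Foxd1*, *Frzb* and *Fgf2*.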

How the data were processed

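Bulk libraries were made by the study from total RNA of sorted cells with Smart-seq2 chemistry and Nextera XT. The authors deposited whole-number read counts per gene for 22938 genes, not scaled. The counter is not given in the sources used here, and the notes name build mm10. Of 18 bulk columns 12 hold cultured cells and were not used. The Smart-seq2 cells were deposited by the authors with units of expected counts, made with kallisto 0.44.0. Replicates within a sort differed beyond sampling noise and were kept apart. Whether counting used strand is not stated, so overlapping genes may share reads.

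Counts of the 4 libraries were tested with edgeR 4.0.16 (filterByExpr, TMM, robust quasi-likelihood) in R 4.3.3, with Benjamini-Hochberg adjustment over all genes tested but *Thy1*, and a gene was called at an adjusted p under 0.05 and at least 2-fold. The procedure was tested on simulated data, where it made more false calls than the threshold allows for and missed many 2-fold changes. DESeq2 1.42.0 was an alternative. Levels are CPM of the library total, which do not correct for gene length, so they are compared between libraries and not between genes. The genes described are the 12 largest called increases and decreases with a mean of at least 10 CPM and the same direction in both replicates, and members of 38 gene lists. A gene of the 12 largest increases and a list member are not reported here. The groups and lists were chosen with earlier results of these data known. *Folr1*, *Clic6*, *Alb* and *Afp*, and *Dkk1* for its promoter, were added after values were seen. Positions are from GENCODE vM21 (GRCm38), and no count model was used for single cells. Intervals and floors cover counting error only.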

Additional observations from a re-analysis of the deposited data

How the results depend on the processing

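Of the genes tested, 4.42% were higher and 5.58% lower in Thy1-high libraries (10.0% in all). With DESeq2 the shares were 4.83% and 5.77%, with median-ratio size factors 4.52% and 5.45%, with no filter on low counts 3.64% and 4.29% of 22392 genes, and with the 2 Pdgfra-/Cd36+ libraries in the fit 3.94% and 4.63%. Leaving out 1 library gave 3.36% to 4.59% higher, 3.30% to 5.22% lower and 6.66% to 9.43% in all. In those fits the sort with 1 library is assumed to vary like the other, and the share without Thy1-low replicate 2 was the lowest. At an adjusted p under 0.01 the shares were 2.80% and 3.36% (6.16% in all), and with no minimum fold 7.45% and 8.55% (16% in all), by construction of the rule. The replicate number as a block gave 5.13% higher and 6.46% lower. Thy1-high and Thy1-low libraries of the same number deviated together (r = 0.265 across 9214 genes). Against the Pdgfra-/Cd36+ libraries r was -0.050 for Thy1-high and 0.101 for Thy1-low. *Alb* was higher in replicate 1 of every sort, at 14.2 and 0 CPM in the Pdgfra-/Cd36+ libraries. The labels name no shared batch, and with only 2 pairs a shared origin was not tested. Under the block 1 of the named calls was lost, that of *Ttr* (adjusted p = 0.171). Of the called genes named in the text, 20 lost their call with 6 libraries, 11 with no filter, none with median-ratio factors and 17 to 41 with 1 library left out, and 65.9% kept it with each library left out. None of them changed sign. The calls lost with 6 libraries were those of *Aldh1a1*, *Bmp2*, *Chrd*, *Dcc*, *Fgf2*, *Fgfr4*, *Foxd1*, *Fzd8*, *Gli2*, *Krt5*, *Mfap5*, *Ngfr*, *Nog*, *Pmel*, *Ptx4*, *Rspo2*, *Tgfb2*, *Tnnt1*, *Ttr* and *Wnt6*, with an adjusted p of 0.052 to 0.235 except for *Tgfb2* (0.0138), which was under 2-fold. The cause was not tested. In single cells the ratios of 18 called genes named in the text changed sign with the split at 1 CPM of *Thy1*, those of *Adipoq*, *Bmp2*, *Bmp3*, *Cidec*, *Col22a1*, *Col4a4*, *Dcc*, *Foxd1*, *Frzb*, *Inhbb*, *Krt19*, *Map2*, *Rspo2*, *Scx*, *Tie1*, *Ttr*, *Ucp1* and *Unc5c*, and those of *Frzb*, *Krt15*, *Map2* and *Rspo3* with the split at 50 CPM. With 2 technical libraries a sort, genes of few counts could not be tested well, and a missed threshold does not show equality.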
